A study of Mus musculus with 4 samples.

Results

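Extracellular vesicles are released by cells through the secretory machinery of endosomes and the plasma membrane. The 10 genes described here encode parts of that machinery: the tetraspanins Cd63, Cd81 and Cd82, which sit in vesicle membranes, the ESCRT genes Tsg101 and Pdcd6ip (Alix), which sort cargo and pinch vesicles into endosomes, the GTPases Rab27a and Rab27b, which dock vesicle-filled endosomes at the cell surface, Smpd3, a neutral sphingomyelinase that makes the ceramide used in an ESCRT-independent route of budding, and the raft proteins Flot1 and Flot2. All 10 were taken by symbol from the 32285 genes in the count tables. The rule uses no measured value, although the genes were listed with earlier results of these data known. CD63 and CD81 proteins are common markers of vesicle preparations, and spermatogonia in the testis lie against somatic cells that can release and take up vesicles.

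The samples were primary spermatogonial cultures from 3 male mice at postnatal day 6, made from Thy1-selected testis cells and kept on STO cells, a mouse embryonic fibroblast line used as feeder, in medium with GDNF and basic FGF. Vehicle cultures received PBS and EV cultures received 1 μg/mL of vesicles isolated from testes of postnatal day 7 mice, both for 3 days. The strain is given as C57BL/6 for the mice of postnatal day 7 and is not given for the culture donors in the sources used here. Single cells were profiled with a 10x Genomics protocol that counts unique molecular identifiers (UMIs), so that each count is a distinct captured RNA molecule, and levels are given as UMIs of a gene per 1000000 UMIs of its class of cells (CPM). There were 2 vehicle libraries (vehicle 1 and vehicle 2) and 2 EV libraries, of which EV 1 was used for expression and the expression of EV 2 was not analysed here. A comparison of EV with vehicle therefore has 1 library on the EV side and no measure of the spread between EV libraries. No test was run, and intervals around its ratios cover counting error only.

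The 3 libraries held 5249 to 9738 barcodes and 10793232 to 27444797 UMIs, and after filtering and removal of called doublets 4779 to 8637 cells remained. Any 2 libraries shared at most 22 barcodes. Cells were called germ cells where Dazl, Tex15, Stk31 and Epcam together had at least 2 UMIs and more than Col1a1, Col1a2, Sparc and Dcn together, and feeder cells by the reverse. Germ cells made up 53.4% of vehicle 1, 55.4% of vehicle 2 and 4.75% of EV 1 (227 cells), so that the germ cell class of EV 1 rests on 325012 UMIs against 9445041 and 11013433 in the vehicle libraries. Germ cell markers outside the rule, such as Ddx4 and Mael, were at 3.12%, 2.54% and 0.664% of their germ cell level in the feeder class, as a summed level in vehicle 1, vehicle 2 and EV 1. Fibroblast markers outside the rule were at 11.8%, 10.1% and 18.7% of their feeder level in the germ cell class. Among markers of other testis cells in the feeder class, the Sertoli cell hormone gene Amh had at most 2 UMIs per library and Cldn11 at most 3, Wt1 had 10 to 13, Gata4 had 40 to 59, and Sox9, which Sertoli cells and some fibroblasts both use, was at 275 to 298 CPM. Of the macrophage markers, C1qa had at most 1 UMI, Adgre1 3 to 5, Ptprc 6 to 9, Csf1r 5 to 12 and Cd68 64 to 123.

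All members are protein-coding genes in the GENCODE vM21 annotation of the mouse genome build GRCm38 (mm10). Cd63 (ENSMUSG00000025351) spans chr10:128900989-128912822 on the plus strand, Cd81 (ENSMUSG00000037706) chr7:143052739-143067934 on the plus strand and Tsg101 (ENSMUSG00000014402) chr7:46888949-46919969 on the minus strand. Pdcd6ip lies at chr9:113651744-113708259, Rab27a at chr9:73044854-73097629, Cd82 at chr2:93419111-93463140, Smpd3 at chr8:106252548-106337988, Flot1 at chr17:35823230-35832791 and Flot2 at chr11:78037931-78060434. Of the genes in the count tables, those on the opposite strand that overlap a member are R74862 (Cd81), Gm10804 (Cd82), and Prmt7 and Gm10629 (Smpd3). Pseudogenes on the opposite strand that have no row in the count tables overlap Tsg101 (Gm45628) and Rab27b (AC163398.1). Others without a row overlap a member on the same strand. They are the long non-coding RNA gene Gm26786 (Smpd3), the pseudogene Gm27186 (Rab27a) and the microRNA gene Mir7001 (Cd82). Strand cannot tell reads of these same-strand genes from those of the members. The strand setting of the counting was not given in the sources used here, so reads from opposite-strand genes may not be separable either.

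Promoter windows from RefSeq (GRCm38.p6) were matched for 7 of the 10 members. The 250 bases before the annotated start are printed for Cd63 and Cd81, because these genes had the same pattern of levels across cells (below), and for Tsg101, because it did not share it. Capitals mark matches on either strand. The motifs searched were the GC box, spelled GGGCGG, the CCAAT box, the E-box, spelled CACGTG, the ETS core, spelled CGGAAG, the AP-1 site, spelled TGANTCA, and the TATA box, spelled TATAAA. Overlapping matches run together. Each sequence reads 5′ to 3′ toward the gene.
Cd63, chr10:128909095-128909344, plus strand: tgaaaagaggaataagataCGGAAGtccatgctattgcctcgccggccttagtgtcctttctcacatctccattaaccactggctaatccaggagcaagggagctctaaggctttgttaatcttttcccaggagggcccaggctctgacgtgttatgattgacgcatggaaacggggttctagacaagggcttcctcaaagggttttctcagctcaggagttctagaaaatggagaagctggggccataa
Cd81, chr7:143052500-143052749, plus strand: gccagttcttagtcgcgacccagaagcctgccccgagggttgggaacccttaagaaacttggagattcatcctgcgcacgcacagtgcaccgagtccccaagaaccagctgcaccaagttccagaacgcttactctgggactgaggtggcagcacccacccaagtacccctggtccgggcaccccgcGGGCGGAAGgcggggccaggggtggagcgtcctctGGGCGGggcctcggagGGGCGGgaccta
Tsg101, chr7:46919970-46920219, minus strand: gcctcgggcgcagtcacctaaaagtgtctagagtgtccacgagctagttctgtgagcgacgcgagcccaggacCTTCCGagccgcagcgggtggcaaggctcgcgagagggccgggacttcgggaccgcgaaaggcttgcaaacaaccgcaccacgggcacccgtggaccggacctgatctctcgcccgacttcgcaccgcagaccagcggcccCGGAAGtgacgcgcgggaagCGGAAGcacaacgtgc
The Cd63 window held 6 CpG dinucleotides and 48.8% G or C, the Cd81 window 16 and 65.6%, and the Tsg101 window 30 and 66.8%, where the median of all 32851 windows of this length was 6 and 52.4%. The Cd81 window held 3 GC boxes, a motif present in 32.7% of all windows, and the Cd63 and Tsg101 windows held none. The ETS core was present in all 3 printed windows, 1 time in Cd63, 1 time in Cd81 where it overlaps a GC box, and 3 times in Tsg101, and in 13.6% of all windows. Among the other matched members it was in the Flot2 window and a Cd82 window. The windows of Pdcd6ip and Rab27a and the other Cd82 windows held none. The share of all windows was not matched for CpG content. None of the 3 windows held a CCAAT box (33.8% of all windows), an E-box (6.02%), an AP-1 site (6.75%) or a TATA box (12.4%). The Cd63 start used here lies inside the GENCODE gene, which begins upstream of it.

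The tetraspanins Cd63 and Cd81 were lower in germ cells than in feeder cells in every library. Cd63, the tetraspanin of late endosomes, was at 2244, 2187 and 1783 CPM in the feeder class of vehicle 1, vehicle 2 and EV 1, and at 336, 300 and 403 CPM in the germ cell class of the same libraries. Every feeder value lay above every germ cell value. The fitted log2 ratio of germ cells to feeder cells was -3.08 (SE 0.15, n = 3 libraries, edgeR quasi-likelihood test, Benjamini-Hochberg adjusted p = 5.81e-16). Cd81, a tetraspanin of the plasma membrane, was at 1191, 1166 and 1009 CPM in feeder cells and at 137, 121 and 194 CPM in germ cells, again without overlap, with a fitted log2 ratio of -3.44 (SE 0.16, edgeR adjusted p = 3.67e-16).

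**Figure D1:**
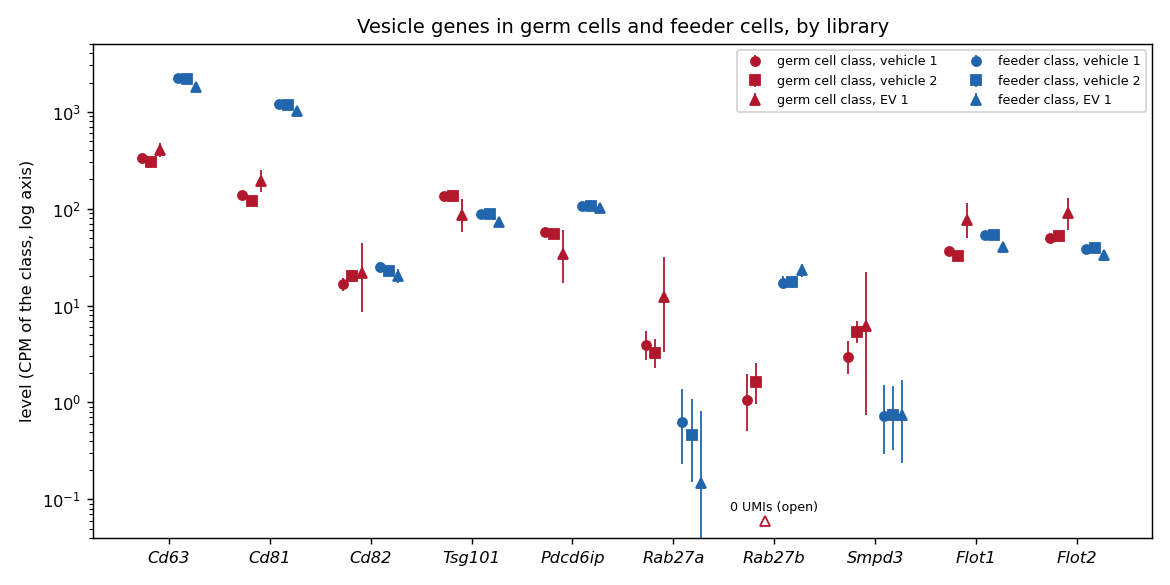
Level of each member (CPM of the class, log axis) in the germ cell class (red) and the feeder class (blue) of vehicle 1 (circle), vehicle 2 (square) and EV 1 (triangle), with exact 95% Poisson intervals. Cd63 and Cd81 lie between 1009 and 2244 CPM in feeder cells and between 121 and 403 CPM in germ cells, and the open triangle stands for Rab27b with 0 UMIs in germ cells of EV 1.

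Fibroblast markers also appeared in the germ cell class, at shares of their feeder level that varied from gene to gene. Cd63 in germ cells was at 15.0%, 13.7% and 22.6% of its feeder level in vehicle 1, vehicle 2 and EV 1, and Cd81 at 11.5%, 10.4% and 19.2%. The list held 8 fibroblast markers, and the same share was 5.74%, 4.40% and 17.6% for the collagen gene Col3a1, 8.50%, 7.27% and 15.7% for the collagen crosslinker Lox, 9.41%, 6.17% and 16.3% for the protease inhibitor Timp1, and 11.3%, 9.74% and 19.0% for the fibronectin gene Fn1. It was 16.7%, 10.0% and 7.51% for the matrix gene Thbs1, 55.6%, 62.2% and 49.2% for Col5a1, and 30.8%, 54.6% and 418% for Postn, which had 2 UMIs in germ cells of EV 1, and Lum had no UMI in germ cells. Cd63 and Cd81 thus lay above some of these markers and below others. With each class's level reduced by the other's at the share of the summed markers, the log2 ratio of mean CPM of germ cells to feeder cells, which has no TMM scaling, would be -4.80 for Cd63, -9.15 for Cd81 and 4.34 for Rab27a, and with the share of Col3a1 in germ cells, an alternative chosen after the data were seen, -3.63, -4.44 and 4.35. The ratio of mean CPM with nothing subtracted, also added after the data were seen, was -2.58, -2.90 and 3.97. For Pdcd6ip, Cd82, Tsg101, Smpd3, Flot1 and Flot2 the subtraction kept the direction of that ratio at both shares. The means weigh the libraries equally, so the Rab27a values rest largely on 4 UMIs in EV 1 germ cells. In vehicle 1 and vehicle 2 the log2 ratio of CPM of Rab27a was 2.55 and 2.70. At the first share Cd81 was left at -3.23, 3.81 and 5.32 CPM in germ cells, so its ratio cannot be read. Rab27b was left at -0.97, -0.14 and -4.30 CPM in germ cells at that share. Its mean left in germ cells was not above 0 at either share, so it has no ratio. When each cell was thinned to 1000 UMIs, Cd63 was seen in 29.5%, 26.5% and 26.4% of germ cells and 81.6%, 80.3% and 74.9% of feeder cells, and Col3a1 in 0.961%, 0.878% and 2.81% of germ cells and 15.4%, 18.0% and 12.1% of feeder cells. Without thinning, Cd63 was seen in 49.5%, 48.2% and 40.5% of germ cells (median 1936, 2091 and 1322 UMIs a cell) and 92.4%, 92.7% and 87.2% of feeder cells (median 3635, 3896 and 2448 UMIs). The thinning left out 49 of the 227 germ cells of EV 1, 146 and 112 germ cells of the vehicle libraries, and 86, 56 and 184 feeder cells.

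**Figure D2:**
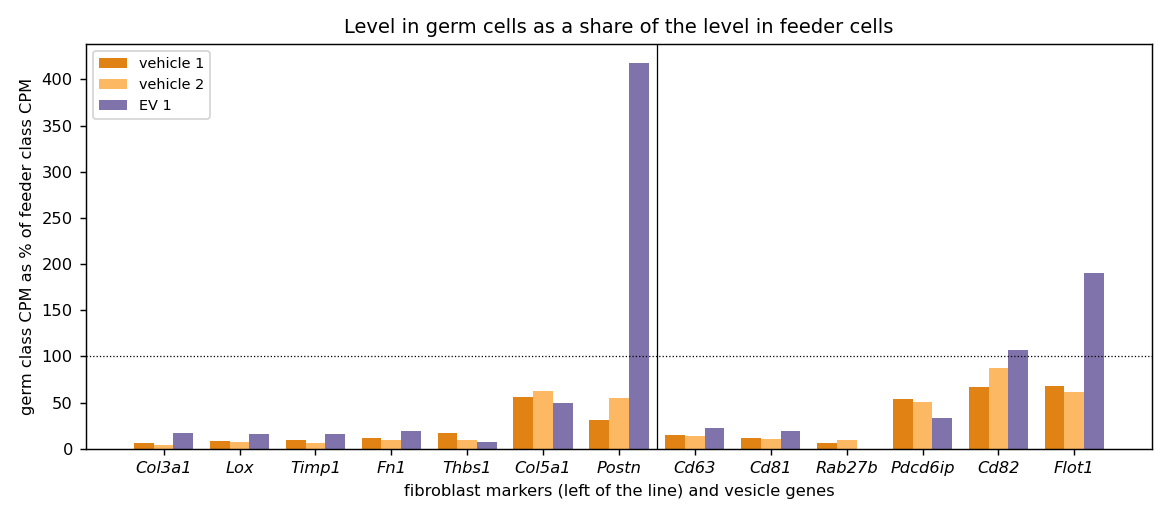
Level in the germ cell class as a percentage of the level in the feeder class of the same library, for the 7 fibroblast markers with UMIs in germ cells and 6 members. Cd63 (13.7% to 22.6%), Cd81 (10.4% to 19.2%) and Rab27b (0% to 9.25%) lie below Pdcd6ip, Cd82 and Flot1 (33.0% to 190%), and the markers run from 4.40% to 418%, the highest from 2 UMIs.

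Cd82, the other tetraspanin of the set, was far less divided. It was at 24.8, 23.0 and 20.2 CPM in feeder cells and at 16.6, 20.2 and 21.5 CPM in germ cells of vehicle 1, vehicle 2 and EV 1. The groups overlapped, and in EV 1 the germ cell level was the higher. The fit called Cd82 lower in germ cells (log2 ratio -0.72, SE 0.12, edgeR adjusted p = 8.54e-06), and the call was lost without vehicle 1 (-0.56, adjusted p = 0.136). Its log2 ratio was -0.35 with library size alone (edgeR adjusted p = 0.0144) and -0.22 as a ratio of mean CPM with nothing subtracted. Germ cells were also divided by a UMI of the differentiation genes Stra8 or Kit. Cd82 was at 13.4 CPM (45 UMIs) in cells with such a UMI and 18.4 CPM (112 UMIs) in the others in vehicle 1. In vehicle 2 it was at 14.1 CPM (58 UMIs) and 23.8 CPM (164 UMIs). Those 2 libraries had the same direction, and EV 1, with 7 Cd82 UMIs in germ cells, was too shallow to read. Cd63 and Cd81 differed little between the same strata, by log2 values of -0.10 and 0.04 for Cd63 and -0.04 and 0.03 for Cd81 in vehicle 1 and vehicle 2. Tsg101 (-0.21 and -0.07), Smpd3 (-0.18 and -0.10), Flot1 (-0.20 and -0.11) and Flot2 (-0.20 and -0.11) were lower with a Stra8 or Kit UMI in both. Pdcd6ip, Rab27a and Rab27b were not. Cd82 was also lower in germ cells with a UMI of Mki67 or Top2a than in the others, by -0.37 and -0.56. None of these differences was tested.

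The ESCRT genes divided in a different way from each other. Tsg101, a subunit of ESCRT-I, was at 136, 134 and 86.2 CPM in germ cells and 87.3, 88.2 and 73.3 CPM in feeder cells of vehicle 1, vehicle 2 and EV 1. The vehicle germ cell values were above all feeder values, while EV 1 germ cells lay within the feeder range. The fitted log2 ratio was 0.16 (SE 0.13, edgeR adjusted p = 0.278), with a call of higher in germ cells without EV 1 (0.22, adjusted p = 5.94e-05) and a small negative value without vehicle 1 (-0.05) or vehicle 2 (-0.02). Pdcd6ip, which binds ESCRT-III and syntenin, was at 107, 107 and 103 CPM in feeder cells and 57.9, 55.0 and 33.8 CPM in germ cells, without overlap. Its log2 ratio was -1.36 (SE 0.13, edgeR adjusted p = 3.67e-10).

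The paired GTPase genes Rab27a and Rab27b lay on opposite sides. Rab27a had 37, 36 and 4 UMIs in germ cells (3.92, 3.27 and 12.3 CPM) and 6, 5 and 1 UMIs in feeder cells (0.628, 0.465 and 0.147 CPM) of vehicle 1, vehicle 2 and EV 1, and every germ cell value was the higher. Its fitted log2 ratio was 2.72 (SE 0.47, edgeR adjusted p = 9.14e-06). Rab27b had 165, 190 and 156 UMIs in feeder cells (17.3, 17.7 and 23.0 CPM) and 10, 18 and 0 UMIs in germ cells (1.06, 1.63 and 0 CPM). The 0 of EV 1 allows a level of up to 9.23 CPM (3 UMIs, a one-sided limit, with 11.4 CPM as the upper end of the exact Poisson interval), which lies below the feeder level of that library. The log2 ratio of Rab27b was -4.05 (SE 0.22, edgeR adjusted p = 7.36e-15), and its germ cell level in the vehicle libraries, 6.13% and 9.25% of the feeder level, lay within the span of the fibroblast markers above. Rab27a in feeder cells was at 16.0%, 14.2% and 1.20% of its germ cell level, where the germ cell markers outside the rule were at 3.12%, 2.54% and 0.664%.

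Smpd3 was scarce and lay on the germ cell side. It had 28, 59 and 2 UMIs in germ cells (2.96, 5.36 and 6.15 CPM) and 7, 8 and 5 UMIs in feeder cells (0.732, 0.744 and 0.737 CPM). Every germ cell value was the higher, but the value of EV 1 rests on 2 UMIs. Its exact Poisson interval, 0.745 to 22.2 CPM, overlapped that of the feeder cells of EV 1, 0.239 to 1.72 CPM. The fitted log2 ratio of Smpd3 was 2.15 (SE 0.38, edgeR adjusted p = 1.36e-05). The low level leaves Rab27a and Smpd3 readable in summed cells only, since under 2% of cells of either class had a UMI of either gene in any library.

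The flotillins, scaffolds of membrane rafts, differed from each other in the vehicle libraries. Flot1 was at 36.3 and 32.6 CPM in vehicle germ cells and 53.6 and 53.4 CPM in vehicle feeder cells, but in EV 1 the order was opposite, with 76.9 CPM in germ cells (25 UMIs) and 40.4 CPM in feeder cells. The fit called Flot1 lower in germ cells (log2 ratio -0.92, SE 0.11, edgeR adjusted p = 3.63e-08), and the call was lost without vehicle 1 (-0.59, adjusted p = 0.0826) or without vehicle 2 (-0.51, adjusted p = 0.132). Flot2 was at 49.7, 52.4 and 89.2 CPM in germ cells and 38.1, 39.0 and 33.2 CPM in feeder cells, without overlap. Its fitted log2 ratio was 0.10 (SE 0.10, edgeR adjusted p = 0.363). As a ratio of mean CPM, which has no TMM scaling and weighs the 3 libraries equally, Flot1 was at -0.01 and Flot2 at 0.80 on the log2 scale. With each class's level reduced by the other's at the share of the summed markers they were at -0.19 and 0.73, and at the share of Col3a1 at -0.12 and 0.77.

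**Figure D3:**
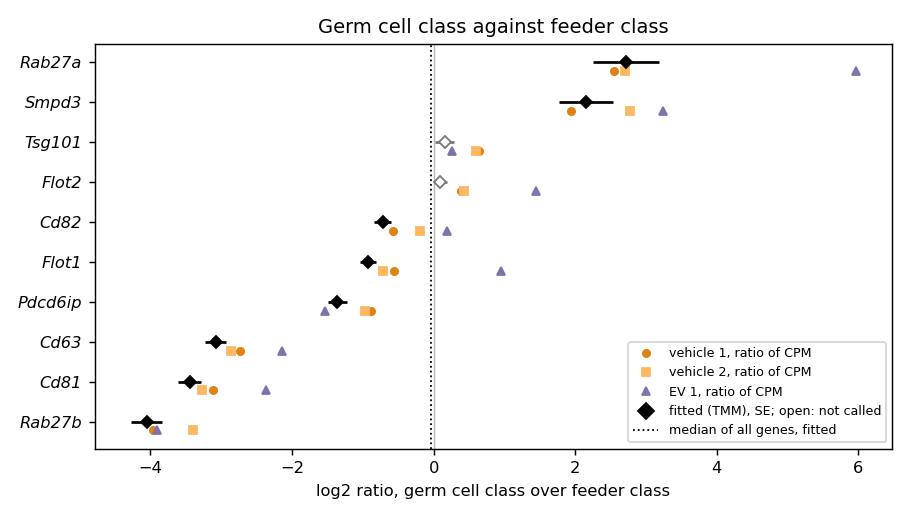
Log2 ratio of the germ cell class to the feeder class for each member, with the fitted value and its standard error (diamonds, open where the adjusted p was 0.05 or more) and the ratio of CPM in each library (coloured points). The 6 members called lower lie at fitted values from -0.72 to -4.05, Rab27a and Smpd3 at 2.72 and 2.15, and for Cd82 and Flot1 the EV 1 point lies on the other side of 0 from the vehicle points.

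In all, 8 of the 10 members were called between the classes, 2 higher and 6 lower in germ cells. Of the 15637 genes tested, 81.8% were called, 40.1% higher and 41.7% lower in germ cells, so the number of members called was close to the background. The median log2 ratio of the members was -0.82 and that of all genes -0.03. Scaling by library size alone moved the median of all genes by 0.38 on the log2 scale and the higher share of calls from 49.0% to 60.3%, and with it Tsg101 (0.60) and Flot2 (0.46) were called higher in germ cells, so that 4 members were higher. The direction of the other 8 was the same under both scalings. Cd63 and Cd81 made up 58.1% to 64.7% of all UMIs of the members in germ cells and 90.5% to 91.2% in feeder cells, as a share of UMIs that is not corrected for transcript length. The summed level of the members was 777, 725 and 923 CPM in germ cells and 3765, 3682 and 3085 CPM in feeder cells.

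Genes of the same pathways were read from 6 lists. Of 20 other tetraspanins, 19 were tested, 7 higher and 10 lower in germ cells. Cd9, another common vesicle marker, was at 343 ± 17.0 CPM (SD, n = 3) in germ cells and 219 ± 15.3 CPM in feeder cells, with a fitted log2 ratio of 0.21 (edgeR adjusted p = 0.214). Tspan13 (5.12), Tspan33 (4.92), Tspan8 (4.09) and Tspan18 (3.87) had the highest log2 ratios of the lists together with Myrip (4.26), which links Rab27a to myosin, and each was at 0.921 CPM or less as a mean in feeder cells. Cd53, a tetraspanin of leukocytes, had the lowest (-4.91, edgeR adjusted p = 6.70e-12), with 2, 3 and 2 UMIs in germ cells.

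Among 28 other ESCRT genes, 5 were higher and 18 lower in germ cells, with a median log2 ratio of -0.53. Chmp4b, an ESCRT-III filament subunit, was lower (-1.24, edgeR adjusted p = 4.40e-09), as was Chmp5 (-2.08, adjusted p = 8.90e-13), while Chmp4c (1.14, adjusted p = 0.00153) and Stam2 (0.46, adjusted p = 0.000255) were higher. In the syndecan-syntenin route, through which Pdcd6ip joins vesicle budding, 7 of 9 genes were lower and 1 higher, with syntenin itself (Sdcbp) at -1.14 (edgeR adjusted p = 3.56e-08). Of 25 Rab GTPases and release genes, 21 were tested, with 4 higher and 12 lower, and the fusion gene Vamp3 was higher at 2.34 (edgeR adjusted p = 1.45e-14). Of 8 sphingolipid enzymes, 3 were higher and 4 lower: Smpd2, another neutral sphingomyelinase, was higher in germ cells (1.59, edgeR adjusted p = 5.73e-08), as was Smpd3, and the acid sphingomyelinase Smpd1 was lower (-2.23, adjusted p = 1.11e-14).

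All 8 partners of membrane rafts were called, 7 lower and 1 higher, with a median of -3.29. The caveolae genes Cav1 (-4.58, edgeR adjusted p = 1.11e-18) and Cav2 (-4.64, adjusted p = 3.21e-17) and the annexins Anxa2 (-3.71, adjusted p = 2.42e-16) and Anxa5 (-4.01, adjusted p = 6.60e-16) were among the 5 lowest of all lists. Against these values stand the background above, 40.1% of all genes higher and 41.7% lower.

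In the feeder class, where EV 1 holds 6784725 UMIs, most members were somewhat lower in the EV library. A member was read where it had at least 200 UMIs over the 3 libraries, and a distance from the vehicle mean was called beyond the vehicle distance where EV 1 lay outside the vehicle pair by more than the pair lay apart. Of 8 members read, 7 lay below both vehicle libraries by more than that distance, as did 46.5% of all 9705 genes read (67.9% on either side). The median log2 ratio of EV to vehicle was -0.23 over the 8 members and -0.13 over all genes, and none of the 8 reached an absolute log2 ratio of 1, which 4.23% of all genes did. With size factors from TMM, which shift every gene alike, the medians were -0.16 and -0.06.

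Cd63 in feeder cells was at 1783 CPM in EV 1 and 2215 ± 40.6 CPM (SD, n = 2) in vehicle, a ratio of 0.805 with a 95% counting interval of 0.789 to 0.822. Cd81 had a ratio of 0.856 (0.833 to 0.880), Flot1 of 0.756 (0.659 to 0.863), Tsg101 of 0.834 (0.754 to 0.922), Flot2 of 0.860 (0.739 to 0.999), Cd82 of 0.848 (0.696 to 1.03) and Pdcd6ip of 0.956 (0.877 to 1.04). The intervals of Cd82 and Pdcd6ip held 1, and Pdcd6ip turned to 0.00 and 0.03 on the log2 scale with TMM and DESeq2 size factors. Rab27b was the member that was higher, at 23.0 CPM in EV 1 against 17.3 and 17.7 CPM, a ratio of 1.32 (1.08 to 1.59). Feeder cells without UMIs of the cycle, interferon or Fos genes were 1104 of 2357, 1130 of 2473 and 2144 of 2508 in vehicle 1, vehicle 2 and EV 1. In these cells alone the log2 ratio of Rab27b was 0.14 in place of 0.40, that of Cd81 -0.14 in place of -0.22, that of Cd82 -0.40 in place of -0.24 and that of Flot2 -0.32 in place of -0.21.

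In the same feeder cells the summed fibroblast markers outside the rule were at 1922, 1996 and 2255 CPM in vehicle 1, vehicle 2 and EV 1, and macrophage markers at 8.58, 8.37 and 20.9 CPM, of which Cd68 gave 6.69, 6.23 and 18.1 CPM, Csf1r 0.523, 1.12 and 1.47 CPM, Ptprc at most 0.941 CPM and Adgre1 at most 0.465 CPM. Their part in the member values was not tested. Cells with a UMI of Mki67 or Top2a made up 292 of 2357, 271 of 2473 and 56 of 2508 feeder cells, and without them, the median of the 8 members was -0.24.

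**Figure D4:**
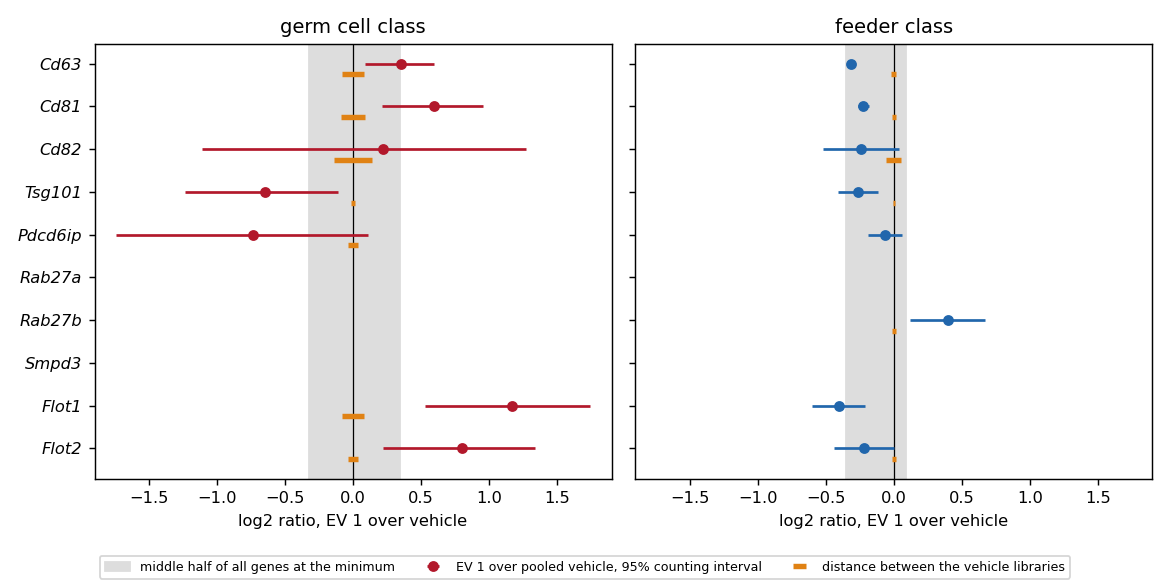
Log2 ratio of EV 1 to the pooled vehicle libraries for members with at least 200 UMIs, in germ cells (left) and feeder cells (right), with exact 95% counting intervals. The orange bar under each gene is as wide as the distance between the vehicle libraries, and the grey band runs from the 25th to the 75th percentile of all genes read. Cd63, Cd81, Flot1 and Flot2 lie right of 0 in germ cells and left of 0 in feeder cells.

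In the germ cell class, the EV library was read from 227 cells. Of 7 members with at least 200 UMIs, 6 lay beyond the vehicle distance, 4 above and 2 below, and 76% of all 9674 genes read did so too. The median log2 ratio was 0.35 over the 7 members and 0.01 over all genes. Flot1 was the member that passed an absolute log2 ratio of 1, as 8.63% of all genes did: it had 25 UMIs in EV 1, or 76.9 CPM, against 34.5 ± 2.63 CPM (SD, n = 2) in vehicle, a ratio of 2.24 with a counting interval of 1.44 to 3.34. Flot2 had 29 UMIs and a ratio of 1.75 (1.16 to 2.52). The levels of Flot1 and Flot2 in EV 1 germ cells, 76.9 and 89.2 CPM, were above their levels of 40.4 and 33.2 CPM in the feeder cells of the same library.

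Cd63 (131 UMIs, ratio 1.27, interval 1.06 to 1.51) and Cd81 (63 UMIs, ratio 1.51, interval 1.16 to 1.94) were also higher in EV 1 germ cells, together with the summed fibroblast markers, which were at 226 and 201 CPM in vehicle and 422 CPM in EV 1. When each feeder level was subtracted from the germ cell level at the share of the fibroblast markers, Cd63 turned to -0.12 on the log2 scale, and Cd81 gave 4.19 from levels near 0, which cannot be read. At the share of Col3a1 alone, an alternative chosen after the data were seen that rests on 7 Col3a1 UMIs in EV 1 germ cells, Cd63 and Cd81 turned to -1.21 and -2.11. Flot1 was at 0.99 or more on the log2 scale in every alternative tried. Tsg101 was lower, with 28 UMIs and a ratio of 0.640 (0.424 to 0.927), and Pdcd6ip had 11 UMIs and a ratio of 0.601 with an interval that held 1 (0.299 to 1.08). Germ cells with a UMI of Mki67 or Top2a were 2972 of 4411, 3293 of 4783 and 102 of 227, and in the others the log2 ratio was -0.26 in place of -0.62 for Tsg101 and -0.19 in place of -0.68 for Pdcd6ip. With feeder levels subtracted, Pdcd6ip was at -1.61, or at -1.69 with the share of Col3a1. Cd82 had 7 UMIs and a ratio of 1.16 (0.464 to 2.42). Rab27a (4 UMIs), Smpd3 (2 UMIs) and Rab27b (0 UMIs) were not readable in germ cells of EV 1 at this depth.

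Among genes of the wider lists with at least 200 UMIs and beyond the vehicle distance, the raft partner Anxa2 was one of the 3 with the highest EV ratios in each class. In germ cells, Anxa2, with 102 UMIs in the EV library, had a ratio of 3.44 (2.79 to 4.20), Anxa5 20 UMIs and 2.50 (1.51 to 3.90), and Tspan33 14 UMIs and 1.84 (1.00 to 3.12). The germ cell level of Anxa2 was 9.46%, 7.79% and 17.9% of its feeder level in vehicle 1, vehicle 2 and EV 1, and that of Anxa5 8.24%, 6.20% and 20.1%, beside 11.8%, 10.1% and 18.7% for the summed fibroblast markers, whose part in these ratios was not tested. On the lower side, ranked by the log2 ratio with 0.5 UMIs added, stood Sphk1 (2 UMIs, 0.346, 0.0417 to 1.26), Stx4a (5 UMIs, 0.474, 0.153 to 1.11) and Mvb12a (5 UMIs, 0.492, 0.159 to 1.15), whose intervals all held 1. Without that addition Tspan15 (2 UMIs, 0.436, 0.0525 to 1.59) had a lower ratio than Stx4a and Mvb12a. In feeder cells, Cd53 had a ratio of 1.85 (1.44 to 2.38), Sgms2, a sphingomyelin synthase, 1.85 (1.60 to 2.13) and Anxa2 1.65 (1.61 to 1.69). Of the macrophage markers given above, Cd68 and, with 10 UMIs in EV 1, Csf1r were above both vehicle values together with Cd53, a leukocyte gene, and Ptprc, Adgre1 and C1qa were not above their highest vehicle values. Their part in the Cd53 value was not tested. Stoml2, a stomatin of mitochondria, had a ratio of 0.556 (0.480 to 0.641), Chmp6 0.669 (0.511 to 0.864) and Mvb12a 0.686 (0.589 to 0.797).

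Over all kept cells of a library, the level of a gene combines the mix of classes and the level within each. Germ cells gave 44.4% and 45.9% of the UMIs of the vehicle libraries and 3.24% of EV 1. Cd63 was at 1259, 1206 and 1560 CPM in whole libraries of vehicle 1, vehicle 2 and EV 1. Vehicle levels within each class, weighted by the class shares of EV 1, would give 1788 CPM. Tsg101 was at 111, 111 and 76.9 CPM, where the same weighting gave 95.4 CPM, and Rab27b was at 9.72, 9.42 and 21.7 CPM, where it gave 15.1 CPM. The whole-library level of Cd63 was thus higher in EV 1 than in vehicle while its level in feeder cells was lower, and the weighting had no replicate on the EV side.

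Across 12 groups of cells (germ and feeder cells with and without a UMI of Mki67 or Top2a in each of the 3 libraries), the levels of Cd63 and Cd81 had a Pearson correlation of 0.99. The groups share libraries and fall into 2 classes, so this value describes mainly the division between germ cells and feeder cells, and 512 of 7176 genes had a correlation above 0.95 with Cd63. The closest gene to Cd63 was the lysosomal protease gene Ctsl (0.998), to Cd81 the glutathione transferase gene Mgst1 (0.997), to Pdcd6ip the lipid droplet gene Plin3 (0.99), to Flot2 Ints3 (0.97), to Tsg101 the endosomal syntaxin Stx12 (0.96), to Flot1 Tbc1d1 (0.91) and to Cd82 Tbrg1 (0.87). Tsg101 and Cd63 had a correlation of -0.60 over the same groups.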

How the data were processed

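The authors used Cell Ranger 7.0.1 with the mm10 genome and GENCODE vM23 genes to count UMIs, per the paper's methods and the submitters' processing notes. The deposited files are raw counts of UMIs per gene and barcode for 3 libraries, and gene and barcode lists alone were used for EV 2. Whether intronic reads were counted was not given in the sources used here. Barcodes with more than 400 and fewer than 4000 genes and under 10% mitochondrial UMIs were kept, and the highest Scrublet scores were removed as doublets at 0.8% per 1000 cells. UMIs were summed per gene, library and class. Germ and feeder sums were compared with edgeR 4.0.16 in R 4.3.3 (quasi-likelihood test, TMM, library as a block). The fit took all 15637 genes that passed filterByExpr, and genes with an adjusted p under 0.05 were called. A test on simulated data of 15374 genes came first, in which 95% of 100 genes changed by a log2 value of 1 were recovered. Recovery at the levels of the scarce members Rab27a, Rab27b and Smpd3 was not tested separately. EV 1 was set beside the vehicle libraries by CPM with 0.5 UMIs added for log2 ratios, exact Poisson and binomial intervals (95%), and no test. The Wilson method gave intervals for shares of cells.

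The libraries are biological replicates per the labels, and the paper's figure legends call them independent samples or experiments. Whether each came from a separately derived culture was not given in the sources used here. Each library holds both classes. UMI totals of 10793232 to 27444797 set the precision, and intervals cover counting error only. The members and lists were chosen with earlier results of these data known. Named genes were all members, the 5 highest and 5 lowest called genes of the 6 wider lists between classes with the same direction in every library, and the 3 highest and 3 lowest per class for EV. Other genes named from the lists (Cd9, Chmp4b, Chmp4c, Chmp5, Stam2, Sdcbp, Tspan15, Vamp3, Smpd1 and Smpd2) were chosen after their values were seen. Alternatives were DESeq2 1.42.0, other scaling, filters, class rules, thinning to 1000 UMIs and leaving out each library. Leydig and endothelial markers were at most 9.19 and 24.6 CPM in any class.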

Additional observations from a re-analysis of the deposited data

Results flagged for a closer look

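For 4 members the EV library lay on opposite sides of both vehicle libraries in the 2 classes of cells, beyond the vehicle distance in each. They were 4 of 7 members read in both classes, and 19.6% of all 8017 genes read in both showed the same. The log2 ratio of EV to vehicle was 0.35 in germ cells and -0.31 in feeder cells for Cd63, 0.60 and -0.22 for Cd81, 1.19 and -0.40 for Flot1, and 0.83 and -0.21 for Flot2. The difference between the classes was not tested, since EV 1 is a single library and its germ cell values rest on 131, 63, 25 and 29 UMIs. The summed level of fibroblast markers in germ cells was 422 CPM in EV 1 and 226 and 201 CPM in vehicle. With feeder levels subtracted from germ cell levels at the share of these markers, the germ cell value of Cd63 turned to -0.12, and that of Cd81 stayed above 0 at 4.19, from levels near 0 that cannot be read. At the share of Col3a1 alone, an alternative chosen after the data were seen that rests on 7 Col3a1 UMIs in EV 1 germ cells, those of Cd63 and Cd81 turned to -1.21 and -2.11. For Flot1 and Flot2 the germ cell level of EV 1 was above the feeder level of the same library.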

How the results depend on the processing

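No paired analysis was possible because EV and vehicle share only 1 replicate number with expression values. Between the classes, 8 members were called in the edgeR fit and 6 to 10 over the alternatives: 6 without vehicle 1, 7 without vehicle 2, 9 without EV 1 and 10 with library size alone, where 4 rather than 2 were higher in germ cells. Tsg101, at a log2 ratio of 0.16, ranged from -0.046 (without vehicle 1) to 0.22 (without EV 1) when 1 library was left out, and was called without EV 1 alone. Without EV 1 all calls rest on 2 libraries. As a ratio of mean CPM with nothing subtracted, added after the data were seen, Flot1 moved from -0.92 to -0.01. Of all genes, 6265 were higher and 6522 lower with edgeR, and 4937 and 5542 with DESeq2. For EV against vehicle in feeder cells, 7 members were lower and 1 higher, which was 6 and 2 with TMM or DESeq2 size factors, as Pdcd6ip moved from a log2 ratio of -0.06 to 0.0035 and 0.028. In germ cells 2 were lower and 5 higher. With feeder levels subtracted at the share of Col3a1 this was 4 and 3, and Cd63 (-1.21) and Cd81 (-2.11) changed sign. With the share of all fibroblast markers Cd63 changed sign too (-0.12). The cause of these moves was not tested beyond the alternatives' own construction. After subtraction the Cd81 level left in germ cells was -3.23, 3.81 and 5.32 CPM in vehicle 1, vehicle 2 and EV 1, so its ratio cannot be read. Depth limits Rab27a, Rab27b and Smpd3 in EV 1 germ cells, where 3 UMIs equal 9.23 CPM. Thinning to 1000 UMIs moved Cd63 in germ cells from 0.35 to 0.13 and Pdcd6ip in feeder cells from -0.06 to -0.31 on the log2 scale.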

Other observations

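Cells that neither rule assigned made up 18.1% of vehicle 1, 16.0% of vehicle 2 and 42.8% of EV 1, and carried the members at a summed 1695, 1689 and 2090 CPM, between the germ cell and feeder levels of each library. Cd63 and Cd81 gave 80.1%, 81.3% and 85.1% of the member UMIs in these cells.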
